A study of Rattus norvegicus with 9 samples.

Results

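The comparison described here is that of injured rat spinal cord after an oral herbal decoction with injured cord after water. It rests on 6 of the 9 libraries of the series: the 3 of the T_Spinal group against the 3 of the C_Spinal group. All genes with a mean of at least 1 FPKM (fragments per kilobase of transcript per 1e+06 fragments, a level corrected for length and depth) over these 6 libraries were compared, which was 14608 of the 32623 genes in the table. The animals were female Wistar rats of 8 weeks and 200 to 230 g. Both groups had a cord injury. T_Spinal rats then took 3 mL of Modified Erxian Decoction by mouth once a day, while distilled water was given by gavage to C_Spinal rats. Sham rats, given here only as a level, had the lamina opened without injury to the cord. The labels state neither the time after injury, its method and level, nor the length of cord dissected. Nothing in them ties each library to an animal of its own, so the p-values reflect the scatter among these libraries alone, and that scatter may be technical. Tissue was sequenced in bulk, and fewer cells of a type cannot be told apart from less RNA per cell.

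The series title names the PI3K-AKT pathway as the object of the study. In this pathway, growth factor receptors and other receptors activate PI3K, a lipid kinase with catalytic and regulatory subunits, and the lipid it makes recruits the kinases PDK1 and AKT to the membrane. AKT then acts on the mTOR complexes, on GSK3 and on FOXO transcription factors, while phosphatases such as SHIP1 remove the lipid signal. Most of this control is by phosphorylation, which transcript levels do not measure. In injured cord the lesion fills with microglia, blood-borne macrophages and fibroblasts that lay down collagen, Schwann cells enter from the nerve roots, and neurons and oligodendrocytes are lost.

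C_Spinal libraries held 59.1 to 67.3 M counts and T_Spinal libraries 61.8 to 69.4 M, M standing for 1e+06. Across genes, libraries of the same group had Spearman correlations of 0.9903 to 0.9909 and libraries of different groups 0.9724 to 0.9742, where genes are not independent replicates. Mitochondrially encoded transcripts took 6.06 to 6.47% of counts in C_Spinal and 4.97 to 5.14% in T_Spinal, and the part of this in the results below was not tested. The tissue carried the transcripts of cord glia: Gfap, the astrocyte filament, was at 2880 ± 10.7 FPKM (SD, n = 3) in C_Spinal and 3142 ± 45.7 in T_Spinal, and Mbp, of the myelin sheath, at 4732 ± 73.7 and 5082 ± 55.4. Hox genes, which mark position along the cord, had 1 member higher and 5 lower of 22 tested (median log2 fold change -0.12, and 0.003 with FPKM scaled to a common sum).

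Differences were many and mostly small. With edgeR's quasi-likelihood test and a Benjamini-Hochberg adjusted p below 0.05, 5631 genes differed (38.5% of those tested), 2896 of them higher in T_Spinal (19.8%) and 2735 lower (18.7%). The median absolute log2 fold change of these genes was 0.39, and 4083 of them (72.5%) differed by under 1.5-fold. Only 460 genes differed by 2-fold or more, 185 of them higher and 275 lower (3.15% of genes tested). The 3 libraries of one group all lay above the 3 of the other for 7614 genes (52.1%). The median log2 fold change over all tested genes was -0.005, and each gene list below is to be read against it and against the shares of 19.8% higher and 18.7% lower. The lists were chosen with earlier results of these data known, so departures from these shares are descriptions only. When each library's FPKM was scaled to a common sum and tested with limma, the median over all tested genes moved up to 0.099 and 73.3% of calls were higher, against 51.4% with the counts.

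**Figure D1:**
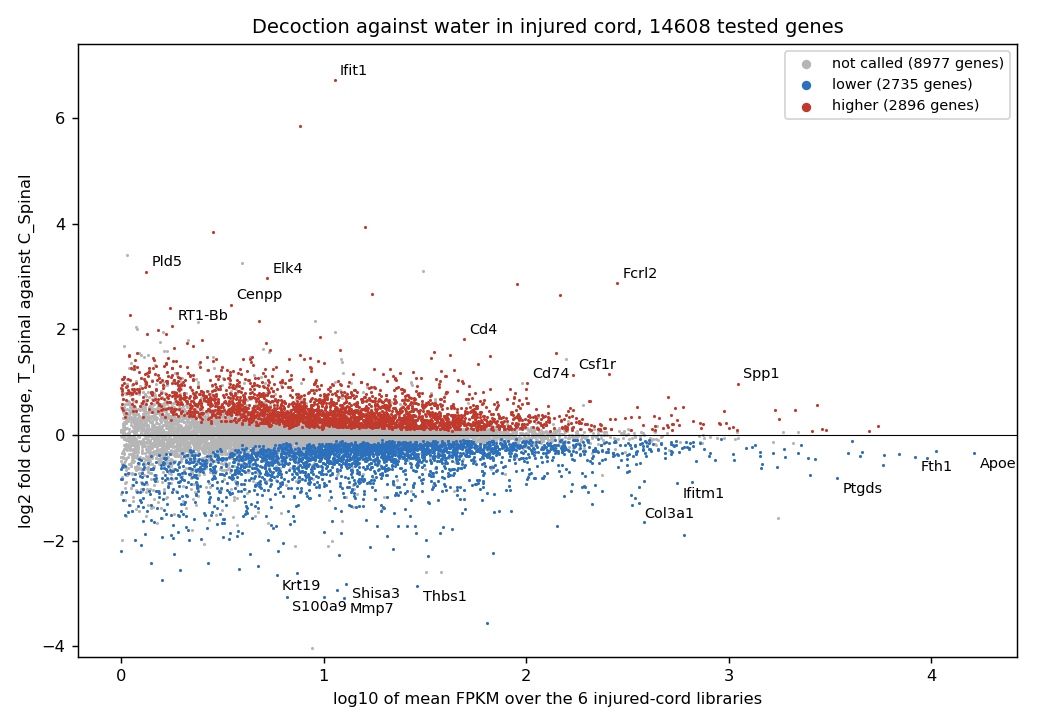
Mean level over the 6 injured-cord libraries (FPKM, log10 scale) against the log2 fold change of T_Spinal over C_Spinal, 1 point a gene, red for the 2896 genes called higher, blue for the 2735 called lower and grey for the rest. Ifit1 lies at 6.72 and Fcrl2 at 2.87, and 11 genes below and 3 above the plotted range are not shown.

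The largest rises included genes with no shared function. Ifit1, an antiviral protein induced by interferon, was at 0.326, 0.138 and 0.156 FPKM in C_Spinal and at 21.7, 22.9 and 22.9 in T_Spinal. The counts behind them were 42, 18 and 23 against 2875, 3412 and 3391, and Sham lay in between at 2.51 ± 0.263 FPKM. The log2 fold change was 6.72, with an SE of 0.25 (adjusted p = 1.11e-06). Fcrl2, an Fc receptor-like protein, was at 66.1, 65.7 and 66.0 in C_Spinal and at 487, 500 and 496 in T_Spinal (log2 fold change 2.87, SE 0.0271, adjusted p = 1.21e-09). It was the rise with both a large ratio and a large amount, as the libraries of a group differed by a few units while the groups were 428 FPKM apart. Pld5, a relative of phospholipase D, was at 0.333, 0.323 and 0.164 against 2.88, 2.08 and 2.23 (log2 fold change 3.09), and Sham was at 5.82 ± 0.338. Elk4, a transcription factor that partners serum response factor, was at 1.16, 1.12 and 1.22 against 9.43, 7.69 and 10.9 (log2 fold change 2.97), with Sham at 6.80 ± 1.29. For Pld5 and Elk4 the C_Spinal libraries were thus the low ones, below both other groups. Batf2, a transcription factor of macrophages, stood at 0.363 ± 0.0791 in C_Spinal and 1.85 ± 0.506 in T_Spinal (log2 fold change 2.28, adjusted p = 0.00124).

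Cenpp, annotated as a centromere protein, was at 1.02, 1.14 and 0.965 against 5.57, 5.77 and 6.41 FPKM (log2 fold change 2.47, SE 0.145, adjusted p = 9.76e-06), and Sham was at 0.83 ± 0.147. In the deposited table it lies on chromosome 17 from 15429708 to 15603199 on the plus strand, and 2 genes of fibroblast matrix lie inside it on the minus strand. These are Ogn (15447716 to 15467359) and Aspn (15495790 to 15519282). Aspn fell from 4.51, 5.82 and 5.84 to 1.00, 1.57 and 1.97 (log2 fold change -1.86, adjusted p = 0.000551). Ogn varied within both groups, at 23.9, 89.9 and 81.2 against 0.0001 (the table's value for no counts), 22.9 and 9.76, and was not called (adjusted p = 0.108). The strand setting of the counting is not given in the sources used here, so reads of Cenpp cannot be told apart from reads of the genes inside it. Other rises of the 12 largest were uncertain too. LOC100360647 was at 27.7, 30.8 and 6.37 against 220, 41.3 and 216, with a single library near the other group on each side. Smim35 had no counts in the first C_Spinal library and an adjusted p of 0.0465, which rose to 0.0746 to 0.114 without C_Spinal 3 or any T_Spinal library.

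By absolute level the largest rises were led by phagocyte genes. Spp1, or osteopontin, which lesion macrophages secrete, rose from 730, 752 and 736 FPKM to 1452, 1486 and 1506 (log2 fold change 0.97, SE 0.0239, adjusted p = 1.63e-07). The lysosomal proteins Ctsd and Psap rose by 0.46 and 0.48, Gpnmb, which foamy macrophages express, by 0.30, and the protease inhibitor Cst3 by 0.16. All 8 of the largest gains in level lay outside the range of the other group. The mitochondrially encoded genes, with 12 lower of 13 (median -0.34), lost the most in level, with a sum of 60400 to 65680 FPKM per library in C_Spinal and 48510 to 51380 in T_Spinal. Losses among nuclear genes included genes of lipid transport, iron storage and meninges. Apoe, the main lipid carrier of the cord, fell from 18970, 17050 and 18150 to 15170, 14390 and 13880 (log2 fold change -0.35, adjusted p = 0.000623). Fth1, the ferritin heavy chain, fell by 0.41, and Ptgds, a prostaglandin synthase abundant in meninges, by 0.82, from 4328 ± 51.7 to 2510 ± 57.2. Vim, a filament of reactive astrocytes and mesenchyme, fell from 2077 ± 28.4 to 1399 ± 36 (log2 fold change -0.60).

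Of the 12 largest falls, several were genes of epithelium, myeloid cells or matrix. Krt19, an epithelial keratin, was at 9.97, 10.2 and 10.2 FPKM in C_Spinal and 1.48, 1.57 and 1.83 in T_Spinal (log2 fold change -2.66, SE 0.116, adjusted p = 2.36e-06). Lilrb2 and Pirb, inhibitory receptors of myeloid cells that bind class I molecules, fell by 2.61 and 2.54 on the log2 scale. Lilrb2 went from 13.1, 12.8 and 12.2 to 2.16, 2.02 and 2.17, and Pirb from 7.16, 5.53 and 6.74 to 1.34, 1.14 and 0.912. Both belong to a cluster of near-identical receptors on chromosome 1, so the split of reads between them is uncertain. Milr1, an inhibitory receptor of mast cells, fell from 4.84, 1.45 and 2.03 to 0.421, 0.64 and 0.194 (log2 fold change -2.75, adjusted p = 0.00573). Slc36a2, an amino acid transporter, fell from 3.33 ± 0.727 to 0.58 ± 0.209 (log2 fold change -2.55).

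Genes of PI3K itself were more often higher than lower in T_Spinal. Of the 10 PI3K subunits and adaptors tested, 6 were higher and 1 lower (median 0.33, and 0.25 relative to genes of similar transcript length). Pik3cg, the catalytic subunit that G protein-coupled receptors activate in leukocytes, rose from 7.68, 7.5 and 7.2 FPKM to 14.0, 14.7 and 15.5, the largest change of the list (log2 fold change 0.95, SE 0.0486, adjusted p = 4.87e-06). Every T_Spinal library was far above every C_Spinal library for this gene, and Sham was at 1.49 ± 0.177. Pik3cd, the other leukocyte isoform, rose from 12.9 ± 0.156 to 19.4 ± 1.1 (log2 fold change 0.55, SE 0.0503, adjusted p = 9.5e-05), with Sham at 3.82 ± 0.0803. Pik3r6 (0.52), a partner of Pik3cg, and Pik3ap1 (0.39), an adaptor of B cells and macrophages, also rose. Of the subunits found in most cells, Pik3r1, the main regulatory subunit, rose from 25.6 ± 0.82 to 33.7 ± 0.326 (log2 fold change 0.36, adjusted p = 0.000122), near the Sham level of 35.2 ± 1.11. Pik3r2 fell by 0.29. Pik3cb rose by 0.29, a call that ended without C_Spinal 1 or 3 or T_Spinal 2 (adjusted p = 0.0526 to 0.055). Pik3ca, the catalytic subunit most tied to growth factor receptors, was at 9.64, 9.58 and 9.07 against 9.88, 10.5 and 10.6 (log2 fold change 0.10, SE 0.0462, adjusted p = 0.14), Pik3r3 was at -0.05 and Pik3r5 at 0.00.

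Phosphatases that oppose PI3K had 4 members higher and none lower of 7 (median 0.31). Inpp5d, which encodes SHIP1 of blood cells and microglia, rose from 16.4, 18.0 and 16.5 FPKM to 27.4, 27.7 and 28.2 (log2 fold change 0.68, SE 0.042, adjusted p = 1.36e-05). Phlpp1, which dephosphorylates AKT, rose from 18.2 ± 0.651 to 26.5 ± 0.778 (log2 fold change 0.50), below the Sham level of 30.7 ± 0.974. Inpp4a rose by 0.37. Phlpp2 rose by 0.31, a call that ended without C_Spinal 2 or T_Spinal 2 or 3 (adjusted p = 0.055 to 0.0743).

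Among AKT, PDK1 and the mTOR complexes, 7 genes were higher and 3 lower of 20 (median 0.08). Akt1 was at 74.0, 72.6 and 72.6 FPKM against 74.0, 74.4 and 73.7 (log2 fold change -0.01, SE 0.028, adjusted p = 0.71). With FPKM scaled to a common sum, limma put Akt1 at 0.10 (adjusted p = 0.0224), close to that scaling's shift of all genes. Akt2 was at 30.8 ± 0.258 against 33.8 ± 2.04 (log2 fold change 0.10, adjusted p = 0.168). Mtor rose by 0.30 (SE 0.044, adjusted p = 0.00125), its partner Rptor by 0.34, and Tsc1, which restrains mTOR, by 0.32. Pdpk1, which encodes PDK1, and Rictor, of an mTOR complex that acts on AKT, rose by 0.33 and 0.23. Leaving out any library but T_Spinal 3 ended the call of Pdpk1 (adjusted p = 0.0527 to 0.108), and leaving out C_Spinal 1 or any T_Spinal library ended that of Rictor (adjusted p = 0.0548 to 0.0669). The translation repressors diverged: Eif4ebp2 rose by 0.45, and Eif4ebp1 fell by 0.42, from 35.2, 30.5 and 34.2 to 29.6, 26.3 and 20.5 (SE 0.131, adjusted p = 0.0364). Rps6kb2, an S6 kinase, fell by 0.36, and Rps6, its ribosomal substrate, by 0.15. The calls of Eif4ebp1 and Rps6 each ended on leaving out any of 4 libraries (adjusted p = 0.0552 to 0.108 and 0.0595 to 0.0655), which were C_Spinal 1 and T_Spinal 2 for both, C_Spinal 3 and T_Spinal 3 for Eif4ebp1, and C_Spinal 2 and T_Spinal 1 for Rps6.

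Targets of AKT went both ways, with 3 genes higher and 5 lower of 14 (median -0.001, a sign that changed with the scaling). Gsk3b, a kinase that AKT inhibits, rose from 12.3, 12.9 and 10.9 FPKM to 16.4, 15.5 and 17.0 (log2 fold change 0.41, adjusted p = 0.00359). Nos3, the endothelial nitric oxide synthase, fell from 5.56, 5.03 and 6.23 to 3.55, 3.28 and 3.77 (log2 fold change -0.70, SE 0.0918, adjusted p = 0.000664). The cell cycle inhibitor Cdkn1a fell by 0.34 and the death promoter Bad by 0.32, while Tbc1d4, an AKT substrate of glucose uptake, rose by 0.37. The other 3 called targets kept their direction but not their call with 1 library fewer. Cdkn1b (-0.29) lost its call without any C_Spinal library or T_Spinal 2 (-0.32 to -0.19, adjusted p = 0.0561 to 0.116). Mdm2 (-0.20), the p53 ligase, lost it without C_Spinal 2 or 3 or T_Spinal 1 or 2 (-0.19 to -0.16, adjusted p = 0.0991 to 0.106). Foxo1 (0.26) lost it without C_Spinal 1 or 2 or T_Spinal 2 or 3 (0.23 to 0.26, adjusted p = 0.052 to 0.0669).

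**Figure D2:**
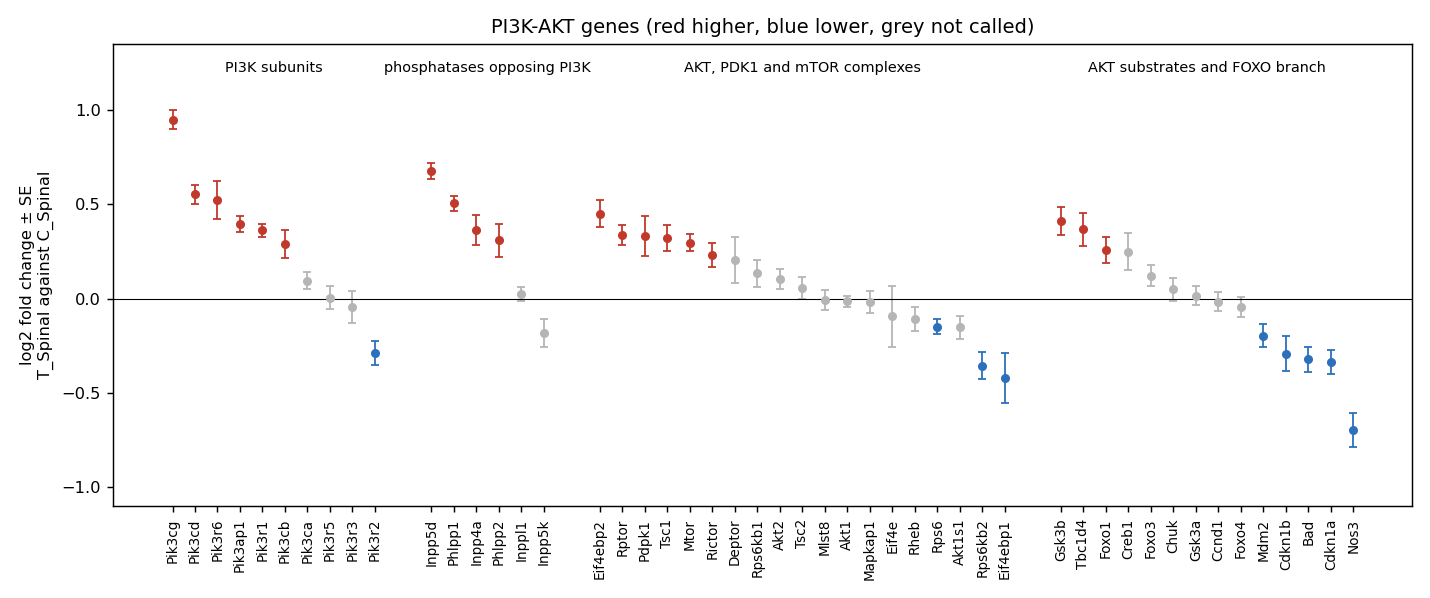
Log2 fold change with its SE (T_Spinal against C_Spinal, 3 libraries each) for 49 tested genes of the 4 PI3K-AKT lists, red for called higher, blue for called lower and grey for not called. Pik3cg (0.95) and Inpp5d (0.68) lie highest, Nos3 (-0.70) lowest, and Akt1 lies near 0.

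Upstream of PI3K, growth factors were more often lower and receptors went both ways, a difference between the lists that was not tested. Of 22 growth factors, 2 were higher and 9 lower (median -0.16). Igf2 fell from 238, 284 and 238 FPKM to 126, 121 and 149 (log2 fold change -0.97, SE 0.0893, adjusted p = 0.000101), and Fgf7, a factor of fibroblasts, from 5.03, 3.60 and 4.99 to 1.13, 1.28 and 1.87 (log2 fold change -1.68). Vegfc and Angpt2, which act on lymphatic and blood vessels, fell by 0.75 and 0.70. The TAM receptor ligand Gas6 rose by 0.20. Of 26 receptor tyrosine kinases and insulin substrates, 10 were higher and 7 lower (median 0.09, and 0.01 relative to genes of similar length). Csf1r, the receptor on which microglia depend, rose from 105, 105 and 104 to 238, 238 and 233 (log2 fold change 1.14, SE 0.0252, adjusted p = 1.01e-07). Erbb4, a neuregulin receptor, and Tyro3, a TAM receptor, rose by 0.65 and 0.51. Fgfr2 was called higher (log2 fold change 0.96) with C_Spinal at 20.2, 20.1 and 34.6 and T_Spinal at 51.4, 44.6 and 52.6. Kit, the stem cell factor receptor of mast cells, fell by 0.91 and Epha2 by 0.66.

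The pathway as the deposited annotation assigns it (KEGG, PI3K-Akt signaling) had 267 of 340 genes tested, with 71 higher (26.6%), 80 lower (30%) and a median of 0.001. The balance differed by role. Its 38 core kinases, phosphatases and targets had 14 higher and 9 lower (median 0.08), and its 38 growth factors and receptors had 7 and 13 (median -0.11). The 40 matrix proteins and integrins, which the annotation places upstream of the pathway, had 8 higher and 24 lower (median -0.47), and the other 151 genes had 42 and 34 (median 0.03).

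Interferon-response genes were mostly lower in T_Spinal, against the rise of Ifit1. In this response, interferon receptors activate transcription factors that bind a DNA element with the core GAAANNGAAA before the genes they induce. Of 45 interferon-response genes tested, 27 were lower and 7 higher (median -0.27), and their summed level was 2912 to 2961 FPKM per library in C_Spinal and 2286 to 2354 in T_Spinal. To show the element in genes that moved down together, the 250 bases before the start of 4 of them are given from RefSeq (build GRCr8), 5′ to 3′ on the gene's strand, with each match to GAAANNGAAA or its reverse complement TTTCNNTTTC in capitals.
Ifit3 (chr1:241527076-241527325, plus strand): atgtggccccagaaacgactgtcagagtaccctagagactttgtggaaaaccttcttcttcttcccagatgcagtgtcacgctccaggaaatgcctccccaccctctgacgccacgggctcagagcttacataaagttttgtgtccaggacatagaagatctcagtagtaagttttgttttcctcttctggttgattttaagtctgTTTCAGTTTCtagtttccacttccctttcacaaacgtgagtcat
Ifit1bl (chr1:241543556-241543805, minus strand): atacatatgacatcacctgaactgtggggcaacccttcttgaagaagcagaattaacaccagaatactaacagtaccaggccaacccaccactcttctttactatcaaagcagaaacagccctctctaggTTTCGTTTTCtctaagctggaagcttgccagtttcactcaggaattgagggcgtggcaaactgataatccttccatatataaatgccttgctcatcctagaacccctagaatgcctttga
Oasl2 (chr12:47383186-47383435, minus strand): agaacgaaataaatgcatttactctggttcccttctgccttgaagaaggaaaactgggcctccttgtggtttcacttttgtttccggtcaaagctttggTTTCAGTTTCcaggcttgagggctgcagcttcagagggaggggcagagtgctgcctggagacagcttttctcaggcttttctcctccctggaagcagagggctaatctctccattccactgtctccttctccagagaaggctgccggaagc
Cxcl10 (chr14:15988816-15989065, plus strand): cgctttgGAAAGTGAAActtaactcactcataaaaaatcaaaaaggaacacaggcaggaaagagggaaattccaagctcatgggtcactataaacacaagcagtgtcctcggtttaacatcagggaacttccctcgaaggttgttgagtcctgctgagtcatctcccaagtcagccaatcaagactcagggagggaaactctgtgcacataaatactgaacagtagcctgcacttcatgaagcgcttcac
Each of the 4 held 1 match. RefSeq promoters were found for 33 of the 45 members, and 21 of the 33 (63.6%) held a match in at least 1 promoter, against 3.61% of all 27457 genes with a promoter in that table. Of the 21 with a match, 11 were lower and 2 higher, and of the 12 without, 8 were lower and 2 higher. A match describes the letters only and is not evidence of binding.

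The Ifit genes, whose products bind viral RNA, sit side by side on chromosome 1 of the deposited table and did not move together. Ifit1 (252944103 to 252946170) rose by 6.72, as given above. Its neighbour Ifit1bl (252914684 to 252922486, opposite strand) fell from 2.56, 3.27 and 2.46 FPKM to 1.04, 0.827 and 0.74 (log2 fold change -1.70, SE 0.192, adjusted p = 0.000294). Ifit2 went from 23.4, 26.0 and 24.9 to 20.3, 19.9 and 21.0 (log2 fold change -0.31), and Ifit3 from 31.8, 36.4 and 34.3 to 28.6, 28.5 and 29.5 (log2 fold change -0.28). In C_Spinal, Ifit2 and Ifit3 lay above their Sham levels of 5.11 ± 0.21 and 5.35 ± 0.284, whereas Ifit1 lay below its own. The RefSeq annotation (GRCr8) places Ifit1 within the span of Ifit1bl on the opposite strand, whereas their deposited coordinates do not overlap. The genes are close relatives, so reads may be split between them, and the part of this in the rise of Ifit1 was not tested. Isg15, a ubiquitin-like modifier, fell by 0.58, Oasl by 1.03 and the membrane protein Ifitm1 by 0.92, from 718, 706 and 728 to 399, 391 and 377. Cxcl10, a chemokine for T cells, fell from 40.3, 48.0 and 42.5 to 27.6, 26.4 and 24.2 (log2 fold change -0.77, adjusted p = 0.00018). Oas2, a sensor of double-stranded RNA, rose from 4, 3.66 and 4.61 to 7.38, 9 and 8.59 (log2 fold change 0.99), and the regulators Irf7 and Irf8 rose by 0.28 and 0.58.

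**Figure D3:**
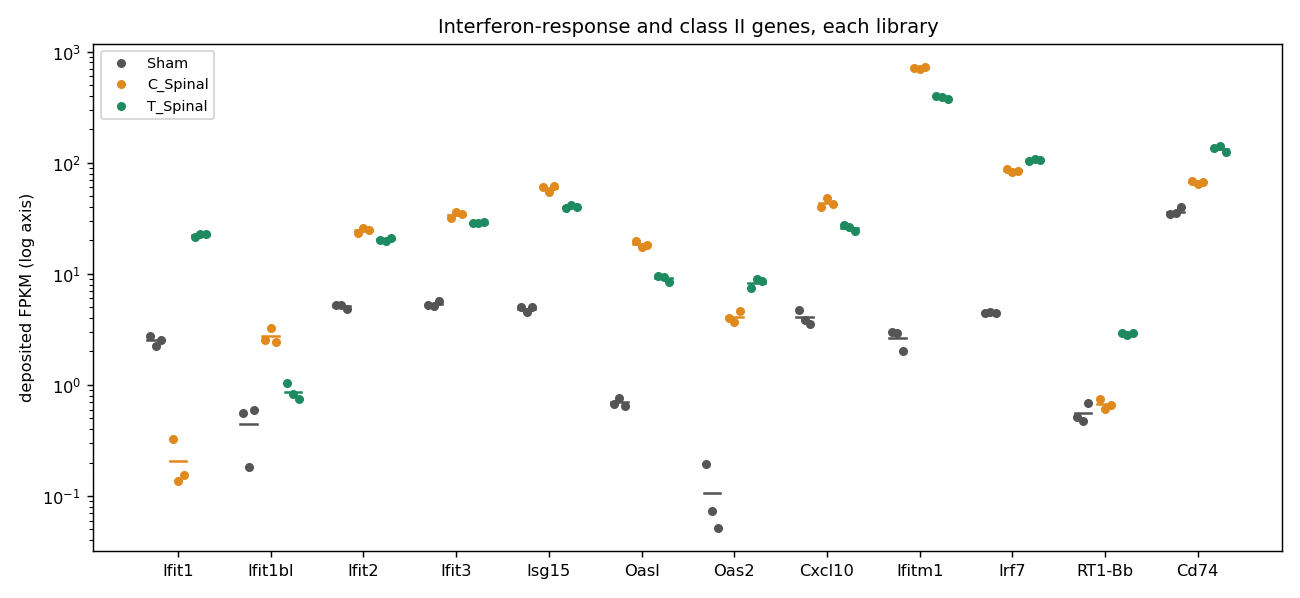
Deposited FPKM on a log axis in each of the 9 libraries for 10 interferon-response genes and the class II genes RT1-Bb and Cd74, with a bar at each group mean (grey Sham, orange C_Spinal, green T_Spinal, 3 libraries each). Ifit1 is the gene with C_Spinal below Sham and T_Spinal above it, while Ifit1bl, Ifit2, Ifit3, Isg15, Oasl, Cxcl10 and Ifitm1 lie lower in T_Spinal than in C_Spinal.

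Antigen presentation and complement genes went both ways. Of 23 MHC and antigen presentation genes, 10 were higher and 6 lower (median 0.25). The rises were led by class II genes: RT1-Bb went from 0.748, 0.604 and 0.664 FPKM to 2.95, 2.81 and 2.96 (log2 fold change 2.07, SE 0.117, adjusted p = 8.2e-06). RT1-Ba rose by 1.2, RT1-Da by 0.81, and the class II chaperone Cd74 from 69.1, 63.9 and 66.5 to 137, 141 and 126 (log2 fold change 0.98). The falls were led by the immunoproteasome subunits Psmb8 (-0.54) and Psmb9 (-0.50), which cut peptides for class I. Of 25 complement genes, 12 were higher and 8 lower (median 0.09). C3, the central component, rose from 31.9, 33.2 and 32.1 to 83.0, 85.2 and 82.3 (log2 fold change 1.33, SE 0.0306, adjusted p = 1.16e-07), and its receptors followed, C3ar1 by 1.4 and Itgam by 0.91. C4b rose by 1.08 with spread in C_Spinal (26.1, 17.0 and 14.5 against 41.1, 42.1 and 41.0). C7, of the lytic complex, fell from 30.9 ± 0.216 to 14.3 ± 0.442 (log2 fold change -1.14), and Cfd, a protease of the alternative pathway, by 0.99.

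Homeostatic microglia genes were mostly higher, while genes of lipid-laden phagocytes went both ways, a difference between the lists that was not tested. Of 17 homeostatic microglia genes, 13 were higher and 3 lower (median 0.68), led by Gpr34 (1.51), Cx3cr1 (1.49), P2ry12 (1.45) and P2ry13. Sparc, also of that list and made by fibroblasts too, fell by 0.40, and the lowest member of the list was at -1.23. Of 24 genes of lipid-laden phagocytes, 11 were higher and 7 lower (median -0.02, a sign that changed with the scaling). Abcg1, which exports cholesterol, rose from 13.1, 13 and 14.2 FPKM to 29.7, 27.0 and 26.5 (log2 fold change 1.01), while Fabp5, a fatty acid carrier, fell by 0.48 and Atp6v0d2, a proton pump subunit, by 0.82. Macrophage state markers and scavenger receptors had 3 higher and 2 lower of 14 (median 0.09). Lysosomal genes had 20 higher and 2 lower of 32 (median 0.16), and Ctsk, a collagen-cleaving cathepsin, was among the lower ones at -0.77. Of 23 Fc and pattern recognition receptors, 12 were higher and 2 lower (median 0.36), among them Tlr9 (1.17), Tlr1 (1.14) and the inhibitory Fcgr2b (0.82). Chemokine genes had 5 higher and 10 lower of 24 (median -0.29, and -0.12 over genes of at least 5 FPKM). The neutrophil attractants Cxcl6 and Cxcl1 fell by 1.6 and 0.98, and Ackr3, a decoy receptor for Cxcl12, by 0.96.

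Neutrophil and lymphocyte genes were mostly below the minimum level. Of 6 tested neutrophil genes, 4 were lower and 1 higher (median -1.24). S100a9 went from 12.7, 10.6 and 12.0 FPKM to 1.04, 1.45 and 1.77, and the higher one, Csf3r, rose by 0.31. The summed level of the neutrophil list was 63.1 to 65.6 in C_Spinal and 30.7 to 33.0 in T_Spinal. Elane was listed at 0 counts in all 6 libraries, and Ltf, Mpo and Camp were below the minimum in both groups. Of others not tested, Cxcr2 had 59, 61 and 60 counts in C_Spinal against 11, 12 and 32 in T_Spinal. Ngp went the other way, with 4, 8 and 15 against 21, 37 and 31. Of 20 lymphocyte and natural killer cell genes in the table, 6 were tested, with 1 higher and none lower (median 0.17), and the list summed to 96.7 to 104.7 FPKM in C_Spinal, 154.2 to 156.7 in T_Spinal and 8.37 to 10.03 in Sham. The higher one, Cd4, rose from 21.1, 22.2 and 21.0 to 76.9, 77.6 and 76.4 (log2 fold change 1.81, SE 0.039, adjusted p = 9.35e-08). Most of the rise of the list's sum from C_Spinal to T_Spinal was that of Cd4. Rat macrophages and microglia carry CD4 as well as T cells. Cd3g, of the T cell receptor complex, was at 1.66, 1.04 and 0.773 against 1.2, 1.24 and 1.65 (log2 fold change 0.21, adjusted p = 0.665), and Cd8a at 59.5 ± 3.1 against 57.4 ± 1.68 (log2 fold change -0.09, adjusted p = 0.194). Among genes of this complex below the minimum, and so not tested, Cd3d had 30, 0 and 11 counts against 47, 40 and 53, and Cd3e 34, 28 and 22 against 64, 47 and 53, higher in each T_Spinal library.

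Genes of the fibrous scar were lower in T_Spinal across collagens, their enzymes and matrix binders. All 8 fibrillar collagen genes and all 9 other tested collagens fell (medians -0.76 and -0.84). Col8a1, a short-chain collagen of vessel walls, went from 31.3, 32.7 and 32.6 FPKM to 8.88, 8.39 and 9.04 (log2 fold change -1.91, SE 0.0425, adjusted p = 1.01e-07), and Col1a1 from 323, 313 and 320 to 161, 157 and 150 (log2 fold change -1.06). Of 18 basement membrane collagens and laminins, 15 were lower and 2 higher (median -0.57), with Lamb1 at -1.09 and Nid2 at -0.99. The 2 that rose, Col4a3 (0.65) and Col4a4 (0.34), encode chains of one specialised type IV network. Of 16 collagen-modifying enzymes, 13 were lower and none higher (median -0.62). Of 21 matricellular genes, 16 were lower and 3 higher (median -0.86), with Smoc2 from 18.8, 20.7 and 19.3 to 4.69, 3.60 and 4.12 (log2 fold change -2.28). Ccn3 and Eln, or elastin, fell by 1.86 and 1.77. Spp1 and Tnr, a tenascin of oligodendrocytes, were among the 3 higher. The small leucine-rich proteoglycans had 7 lower of 8 (median -1.04), with Lum at -1.11, Dcn at -1.09 and Bgn at -0.98.

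Signals and enzymes of matrix turnover moved less uniformly. Of 24 genes of TGF-beta signalling, 8 were higher and 11 lower (median -0.27, and -0.09 over genes of at least 5 FPKM). Gdf10, a TGF-beta family ligand, fell from 3.08, 2.86 and 3.06 FPKM to 0.578, 0.752 and 0.583 (log2 fold change -2.26, SE 0.145), to the Sham level of 0.656 ± 0.0635. The latent binding protein Ltbp2 fell by 0.96, while the receptor Tgfbr1 rose by 0.68 and the ligand Bmp4 by 0.72. Metalloproteinases and their inhibitors had 12 lower and 1 higher of 20 (median -0.45), the higher being Adamts4, a proteoglycan-cleaving enzyme, at 0.30. Mmp8 and Mmp9, carried by neutrophils, fell by 1.4 and 1.07. Chondroitin proteoglycans, the growth-inhibiting matrix of glia, had 7 higher and 2 lower of 13 (median 0.17), with Xylt1, which starts the sugar chain, at 0.94 and Bcan at 0.22. Of 14 integrin subunits, 5 were higher and 3 lower, with Itgb4, of epithelial and Schwann cell adhesion, at -0.64.

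Markers of meninges, Schwann cells and vessel walls moved with these matrix genes, and their part in the result was not tested. Col1a1, Dcn and Lum stand both on the meningeal list and on the matrix lists, so for meninges the shared direction is partly built in. All but 1 of 18 meningeal and fibroblast entries were lower, the other being an uncertain second copy of Crabp2 (median -0.89), with Slc47a1 at -1.21 and Foxd1 at -1.16. The summed level of this list was 5616 to 5709 FPKM in C_Spinal, 3168 to 3293 in T_Spinal and 1468 to 1495 in Sham. Most of the sum in C_Spinal and T_Spinal was Ptgds. Of 21 Schwann cell genes, 19 were lower and 1, Mbp, which central myelin shares, was higher (median -1.52). Mbp rose by 0.07, and its call ended without C_Spinal 2 or 3 or T_Spinal 1 (adjusted p = 0.0556 to 0.078). Ncmap, a protein of noncompact peripheral myelin, was at 37.9, 38.0 and 31.1 in C_Spinal and 8.97, 7.35 and 8.10 in T_Spinal (log2 fold change -2.16, SE 0.128, adjusted p = 1.01e-05), below the 13.9 ± 0.292 of Sham. Gfra3, a receptor of Schwann cells and sensory neurons, fell by 2.43 and Sostdc1 by 1.98. The summed level of this list, most of it Mbp, was 6267 to 6407 in C_Spinal and 5569 to 5668 in T_Spinal. Of 15 pericyte and smooth muscle genes, 10 were lower and none higher (median -0.41), with Cnn1 at -1.90 and Acta2 at -1.09. Of 19 endothelial genes, 9 were lower and 4 higher (median -0.33, and -0.09 over genes of at least 5 FPKM), with Vwf, which endothelium and platelets store, at -0.98. Adipose genes had 3 lower and 1 higher of 4 tested, with Fabp4 at -1.44, while Adipoq and Lep were below the minimum in both groups. Only 3 of 11 skeletal muscle genes in the table were tested, and 1, Tnnc2, was higher. Red blood cell genes went the other way, with 4 higher and 1 lower of 7 (median 0.36), and summed to 555 to 588 FPKM in C_Spinal, 769 to 808 in T_Spinal and 1411 to 1490 in Sham.

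**Figure D4:**
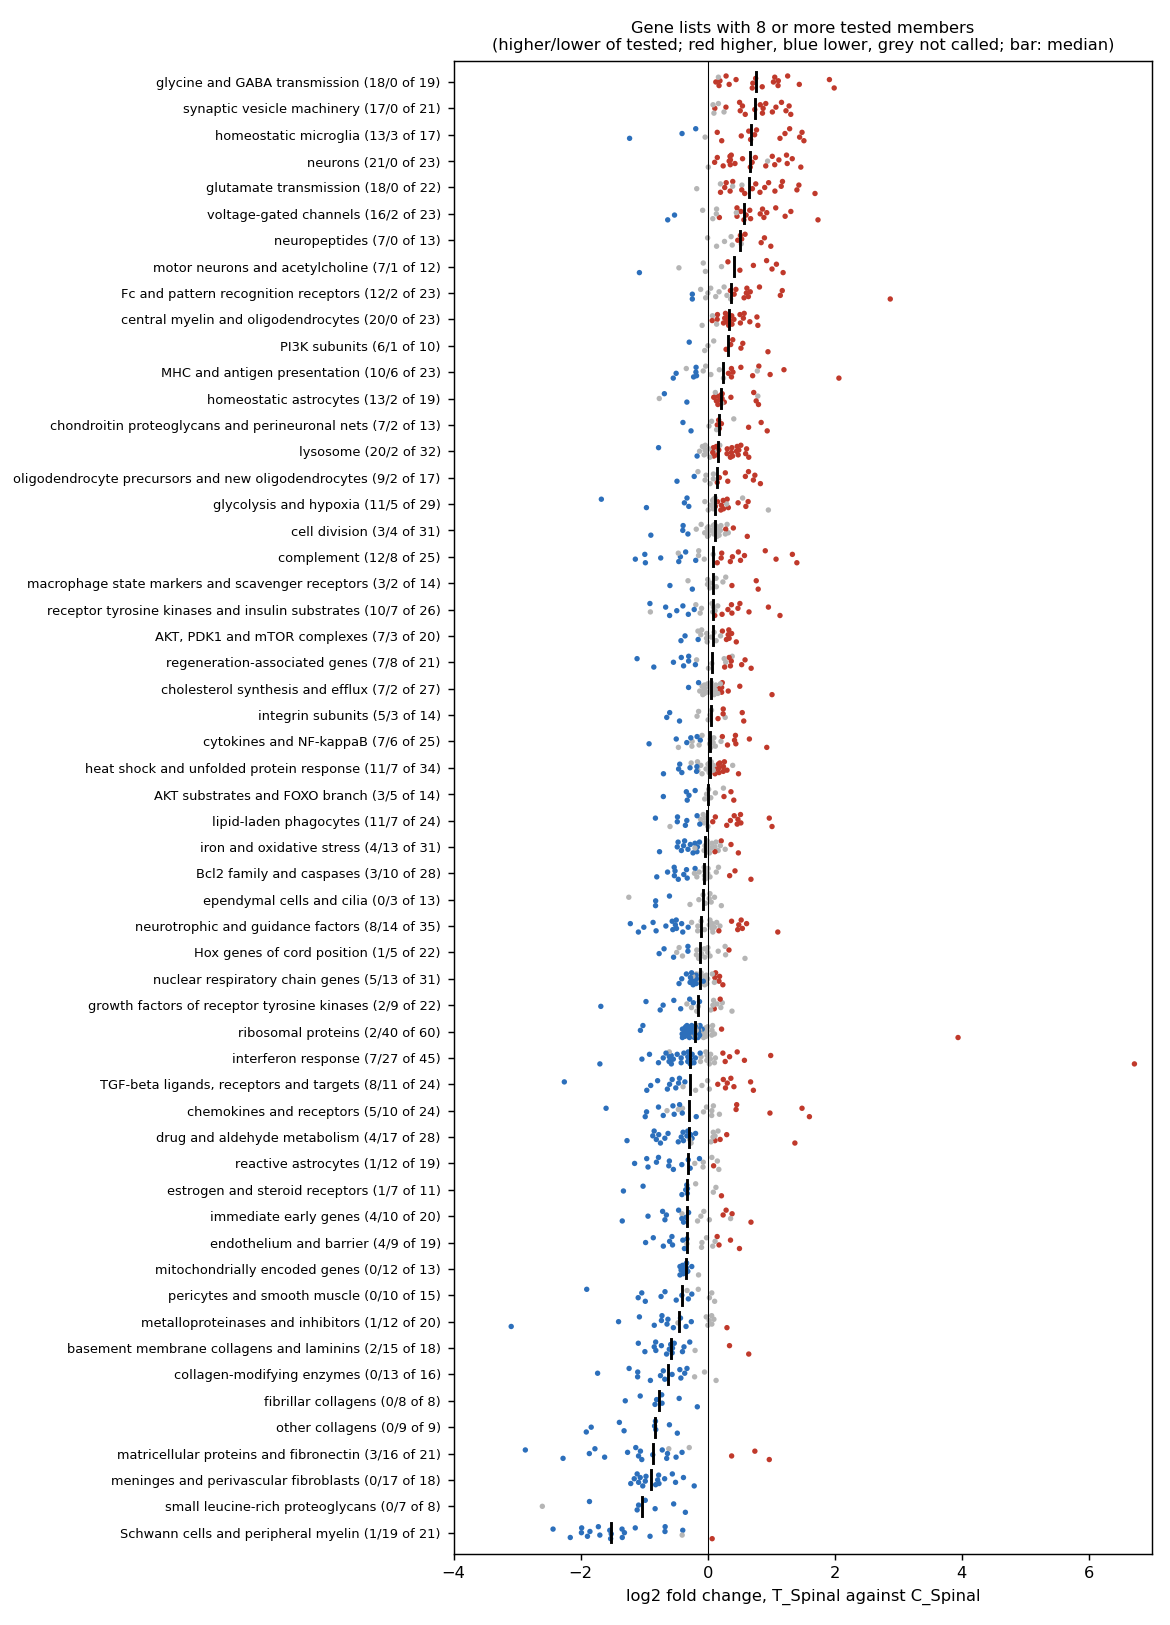
Log2 fold change (T_Spinal against C_Spinal) of each tested member in the 56 gene lists with 8 or more tested members, ordered by median (bar), with the counts higher and lower beside each name. Lists of transmission, neurons and homeostatic microglia lie at the top, with no member called lower in 4 of the 5 with the highest medians, and Schwann cell and matrix lists at the bottom, 1 point at -10.22 (an uncertain second copy of Crabp2, not called) being off the axis.

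Neuronal genes were higher in T_Spinal but far below Sham. Of 23 neuron genes, 21 were higher and none lower (median 0.67, and 0.41 over the 18 of at least 5 FPKM), led by the splicing regulators Rbfox3 (1.47) and Celf4 (1.33), and the summed level was 684 to 713 FPKM in C_Spinal, 976 to 979 in T_Spinal and 4659 to 4728 in Sham. Inhibitory transmission had 18 higher and none lower of 19 (median 0.76, and 0.30 over the 9 genes of at least 5 FPKM): Slc32a1, the vesicular transporter of both inhibitory transmitters, rose from 1.82, 1.64 and 1.24 to 4.45, 4.14 and 4.46 (log2 fold change 1.44), against 34.4 ± 2.2 in Sham, and the GABA-making enzyme Gad2 by 1.26. Glutamate transmission also had 18 higher and none lower, of 22 (median 0.64, and 0.35 over the 6 of at least 5 FPKM). Gria1, an AMPA receptor subunit, rose from 1.02, 0.944 and 1.18 to 3.24, 3.73 and 3.45 (log2 fold change 1.69, SE 0.128, adjusted p = 3.65e-05). Camk2a, the synaptic kinase, rose by 1.44, Slc17a6, the vesicular glutamate transporter of cord neurons, by 1.4 and Grm7 by 1.18. Of 21 genes of synaptic vesicles, 17 were higher and none lower (median 0.74), led by Sv2c (1.31), Rab3c (1.28) and Syt2 (1.23).

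Ion channels, transmitter enzymes and peptides showed the same direction. Of 23 voltage-gated channel genes, 16 were higher and 2 lower (median 0.57, and 0.19 over the 5 of at least 5 FPKM). Kcnc1, a potassium channel of fast-spiking neurons, rose from 0.941, 0.787 and 1.15 FPKM to 3.20, 3.15 and 3.48 (log2 fold change 1.74), against 29.5 ± 1.5 in Sham, and Kcnq3 rose by 1.31. The 2 lower, Cacna1c (-0.63) and Scn4b (-0.52), are also expressed outside neurons, and Cacna1c lost its call on leaving out any library but T_Spinal 2 (adjusted p = 0.0502 to 0.132). Motor neuron and acetylcholine genes had 7 higher and 1 lower of 12 (median 0.41). Ache, which breaks down acetylcholine, went from 1.75, 1.80 and 2.83 to 5.21, 4.56 and 4.07 (log2 fold change 1.08, SE 0.199, adjusted p = 0.00359), against 26.1 ± 0.74 in Sham, and the receptor subunit Chrnb2 rose by 1.19. The 1 lower member, Mmp9, is also on the neutrophil list. Neuropeptides had 7 higher and none lower of 13 (median 0.52), with Penk, the enkephalin precursor, from 12.4 ± 1.72 to 23.6 ± 0.256 and Sst from 15.7 ± 1.94 to 28.8 ± 3.42.

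Supportive glial genes were more often higher and reactive ones more often lower. Central myelin genes had 20 higher and none lower of 23 (median 0.33), led by Ermn (0.79) and Opalin (0.78), late proteins of the oligodendrocyte, and their sum was 9245 to 9328 FPKM in C_Spinal, 11270 to 11480 in T_Spinal and 29790 to 30030 in Sham. Genes of precursors and new oligodendrocytes had 9 higher and 2 lower of 17 (median 0.15). Gpr17, of the committed precursor, rose from 17.8, 20.8 and 21.9 to 36, 39.0 and 35.2 (log2 fold change 0.83), and Pdgfra, which perivascular fibroblasts share with precursors, fell by 0.21. Homeostatic astrocyte genes had 13 higher and 2 lower of 19 (median 0.21). Slc1a2, the main glutamate transporter, rose from 37.8, 42.6 and 40.8 to 71.0, 68.5 and 76.3 (log2 fold change 0.80), and the potassium channel Kcnj10 by 0.73. Aqp4, the water channel, was at 285, 307 and 292 against 77.7, 74.0 and 383, so that 1 T_Spinal library stood with the other group, and was not called (adjusted p = 0.333). Reactive astrocyte genes had 12 lower and 1 higher of 19 (median -0.31), with S1pr3 at -1.15 and Lcn2 at -0.96. Gfap, also of that list, had a higher mean FPKM in T_Spinal, as given above.

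Axon growth and guidance genes moved in both directions. Of 21 regeneration-associated genes, 7 were higher and 8 lower (median 0.07, and -0.08 over genes of at least 5 FPKM), with the injury-induced peptidase Ecel1 at 0.68 and the transcription factors Cebpd and Klf4 at -1.11 and -0.85. Of 35 neurotrophic and guidance genes, 8 were higher and 14 lower (median -0.10, and 0.01 with FPKM scaled to a common sum). Slit2 fell from 7.23, 8.88 and 6.55 FPKM to 3.17, 3.05 and 3.75 (log2 fold change -1.22) while its relative Slit1 rose by 1.10, to 1.42 ± 0.273 against 6.99 ± 0.282 in Sham. Rtn4r, the receptor through which myelin proteins inhibit axon growth, fell from 3.38, 3.79 and 3.81 to 1.93, 1.64 and 1.70 (log2 fold change -1.09, SE 0.133, adjusted p = 0.000449).

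Genes of steroid response and of drug and aldehyde metabolism were more often lower, and glycolysis genes more often higher. Of 11 estrogen and steroid receptor genes and their targets, 7 were lower and 1 higher (median -0.32). Per1, a clock gene that glucocorticoids induce, was at 27.2, 26.8 and 28.0 FPKM against 11.1, 11.2 and 11.1 (log2 fold change -1.33, SE 0.0373, adjusted p = 3.52e-07), with Sham at 14.1 ± 0.332. Tsc22d3, or GILZ, another glucocorticoid target, fell from 45.4 ± 1.4 to 22.9 ± 0.489, and Fkbp5 fell by 0.41, while the glucocorticoid receptor Nr3c1 rose by 0.22. Immediate early genes had 10 lower and 4 higher of 20 (median -0.32), with Egr2, also a Schwann cell regulator, at -1.34, Dusp1 at -0.94 and Egr1 at 0.68. Of 28 drug and aldehyde metabolism genes, 17 were lower and 4 higher (median -0.30), with the aryl hydrocarbon receptor Ahr at -0.86, Fmo1 at -1.27 and the epoxide hydrolase Ephx2 at 1.37. Glycolysis and hypoxia genes had 11 higher and 5 lower of 29 (median 0.12). Slc16a3, which exports lactate, fell by 1.67, and Hk2, a hexokinase, rose by 0.64. Of 28 Bcl2 family and caspase genes, 10 were lower and 3 higher (median -0.05, a sign that changed with the scaling), and Bcl2 itself was at 1.15 ± 0.25 against 1.21 ± 0.198 (log2 fold change 0.04, adjusted p = 0.912). Cell division genes had 3 higher and 4 lower of 31.

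Short transcripts leaned lower and long ones higher in T_Spinal. The deposited counts and FPKM imply a transcript length for each gene, and the tested genes were divided by it into 5 classes of nearly equal size. In the shortest class (51 to 1238 bases) 7.43% of genes were higher and 22.2% lower (median log2 fold change -0.149), and in the longest (4060 to 30626 bases) 32.8% were higher and 16.8% lower (median 0.079). Ribosomal protein genes, with a median implied length of 737 bases, had 40 lower and 2 higher of 60 entries, some of them near-identical copies (median -0.20), and the median was -0.10 relative to genes of the same class. The corresponding median was -0.03 for nuclear respiratory chain genes, against -0.12 unadjusted and 0.01 with FPKM scaled to a common sum. For glutamate transmission it was 0.60, for Schwann cells -1.53 and for fibrillar collagens -0.84, each within 0.1 of the unadjusted value. The part of length in the calls of single genes was not tested.

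**Figure D5:**
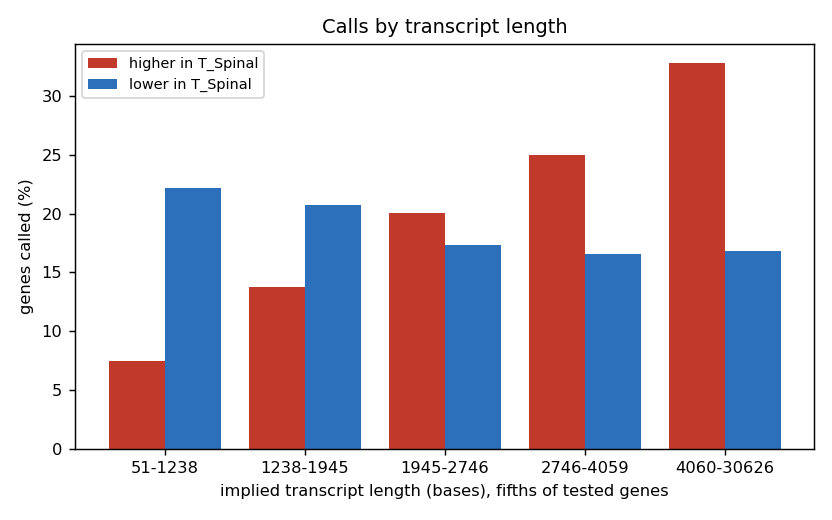
Percentage of tested genes called higher (red) or lower (blue) in T_Spinal, by class of implied transcript length in bases. The share called higher goes from 7.43% in the shortest class to 32.8% in the longest, and the share called lower from 22.2% to 16.8%.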

How the data were processed

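Rat spinal cord in 9 libraries (3 Sham, 3 C_Spinal, 3 T_Spinal) was profiled by poly(A) RNA sequencing with stranded paired-end reads, per the labels' protocols. HISAT and StringTie are named without versions, per the submitters' processing notes, and no genome build, annotation or strand setting is given in what was used here. Raw counts per gene and library stand in the deposited table. It also holds FPKM computed by the authors, listed at 0.0001 where no read was counted. Symbols, coordinates and pathway terms were used as deposited.

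Genes that averaged 1 FPKM or more across the 6 injured libraries were fitted on their counts with edgeR 4.0.16 (TMM scaling, quasi-likelihood test, two-sided, 6 libraries, no covariate) in R 4.3.3, and p-values were adjusted by the Benjamini-Hochberg method over all 14608 genes, with a threshold of 0.05. These genes held at least 99.67% of each library's counts. The test was checked on simulated counts. Alternatives used DESeq2 1.42.0, limma 3.58.1 on log2(FPKM + 1), other scalings and minimums, all 9 libraries, a replicate block and single libraries left out. Comparison with genes of similar length was added after the data were seen. Intervals and tests cover the spread of 3 libraries a group.

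The members and the 64 gene lists were chosen with earlier results of these data known. Genes were named by rule: members of the 4 PI3K-AKT lists, the 12 largest called rises and falls without overlap, the 8 largest called changes in FPKM each way, and up to 4 called members per list in the main direction and 2 in the other. Aqp4, Bcl2, Cd3d, Cd3e, Cd3g, Cd8a, Crabp2, Cxcr2, Ifit2, Ifit3, Irf7, Irf8, Isg15, Ngp, Oasl2, Ogn and the genes of the closing observations were chosen after their values were seen. Some genes the rule names are not reported here. Promoters came from RefSeq (GRCr8).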

Additional observations from a re-analysis of the deposited data

How the results depend on the processing

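The 2896 genes higher and 2735 lower were 2345 to 2591 and 2194 to 2419 when any 1 library was left out, and 3227 and 3052 with DESeq2. FPKM scaled to a common sum and tested with limma gave 4599 higher and 1675 lower, so the split between directions depends on the scaling. Genes higher by 2-fold or more, 185 by the counts, were 87 with limma on log2(FPKM + 1), 112 with the common sum, 295 with no minimum FPKM and 69 with a minimum of 5. Genes lower by 2-fold or more, 275 by the counts, were 154, 122 and 141 with limma, the common sum and the minimum of 5, and the minimums by construction test more or fewer genes. The common sum turned the direction of Akt1 (0.10) and of the medians of Hox genes (0.003), neurotrophic and guidance genes (0.014) nuclear respiratory chain genes (0.013), Bcl2 family and caspases (0.061), ependymal cells (0.042), iron and oxidative stress (0.074), AKT substrates (0.115) and lipid-laden phagocytes (0.098). The minimum of 5 turned the medians of sensory ganglion (0.115), cytokine (-0.083) and regeneration genes (-0.075), and the length comparison that of integrins (-0.01). Medians of AKT substrates and lipid-laden phagocytes also turned under other settings, those of cytokines without T_Spinal 3 and those of iron and oxidative stress without C_Spinal 1. The cause was not tested. With the replicate number as a block, 2591 genes were higher and 2397 lower. Deviations of same-numbered libraries from their group means had correlations of -0.076, -0.03 and -0.102. With 3 libraries a group, such values cannot show whether the numbers pair the libraries. Depth of 59.1 to 69.4 M counts leaves genes of few counts imprecise, and 3 libraries a group of unstated origin limit every test.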

Other observations

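A pair of genes on none of the gene lists was chosen for its fall, after the values were seen. Ddit4, a member of the deposited PI3K-Akt pathway and an inhibitor of mTOR that glucocorticoids and low oxygen induce, was at 75.0, 69.5 and 71.1 FPKM in C_Spinal and 28.0, 27.6 and 27.4 in T_Spinal (log2 fold change -1.41, SE 0.0424, edgeR adjusted p = 4.05e-07), and Sham lay between them. Errfi1, which restrains the EGF receptor, was at 71.3, 70.3 and 71.0 against 27.3, 25.0 and 25.6 (log2 fold change -1.48). The groups were far apart for both genes.

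Clock genes, likewise chosen after their values were seen, did not move as 1 group. Nr1d1 was lower (-0.69) and Arntl lower (-0.31), while Cry1 (0.46), Per2 (0.26), Per3 (0.19) and Bhlhe41 (0.80) were higher. Per2 lost its call without C_Spinal 3 or T_Spinal 1 or 2 (edgeR adjusted p = 0.0653 to 0.0735). Dbp was at 0.13 (edgeR adjusted p = 0.0517) and Ciart at -0.20, and neither was called, although Dbp was called in 8 of the alternative settings. The labels state no time of day at which tissue was taken.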
